A study of Homo sapiens with 6 samples.

Results

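The genes described here are APOE, its neighbour APOC1, the liver X receptors and a set of genes that these receptors control, in K562 cells that received 1 of 3 plasmids. The 9 members (APOE, APOC1, ABCA1, ABCG1, MYLIP, NR1H2, NR1H3, LPCAT3 and SCD) were selected by their NCBI Gene identifier from the 25702 identifiers of each count table, and they were proposed with their counts-per-million (CPM) values by plasmid group and replicate number in view. Their differences between plasmids and between replicate numbers are therefore given as a description. Calls of members in the fit over all genes are listed beside the share of all genes, and are not evidence about the members. All 9 were listed in the tables, and 8 of the 9 passed the filter on low counts that left 15431 genes to be tested. ABCG1 did not pass it.

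K562 is an established erythroid-type cell line from chronic myeloid leukaemia. The cells were transfected by nucleofection with the pCMV-HA plasmid, which was empty (EV), carried MXD3, or carried the STIM1::MXD3 fusion. There were 2 libraries in each of the 3 groups, no treatment was given to any group, and poly A RNA was sequenced. The cells were transfected transiently and RNA was taken from the whole culture, so each value mixes cells with and without plasmid. The study calls the 2 libraries of a group independent transfections, and the labels number them 1 and 2 without saying whether a number marks a shared day or batch. P-values for other genes therefore measure the spread between these libraries. In bulk RNA, fewer cells that express a gene and less of its RNA per cell cannot be told apart.

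Total counts ranged from 53048343 to 63835779 per library. The plasmid genes followed the labels. MXD3 was at 9.33 and 11.7 CPM in the EV libraries, 2523 and 2162 in the MXD3 libraries, and 1975 and 1849 in the STIM1::MXD3 libraries. STIM1 was at 471 and 453 CPM in the STIM1::MXD3 libraries and between 159 and 205 in the other libraries. Of 10 erythroid markers that K562 cells are known for, all 10 passed the filter, and their summed level was 6977 to 9755 CPM. The 6 hepatocyte markers summed to 0.156 to 0.595 CPM, with 1 of 6 at 0 in every library. The 10 monocyte and macrophage markers summed to 126 to 165 CPM, with 2 of 10 at 0 in every library, and CD68, which other cells also express, held a mean of 128 CPM in the replicate 1 libraries and 112 in the replicate 2 libraries.

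The liver X receptors, LXRα (encoded by NR1H3) and LXRβ (NR1H2), are nuclear receptors that bind oxysterols, the oxidised forms of cholesterol. Paired with a retinoid X receptor (RXR), they switch on genes that carry cholesterol out of the cell, limit its uptake and raise fatty acid synthesis, and in macrophages they are known to switch on APOE and APOC1. Low sterol is sensed by another system, the SREBP transcription factors, which switch on cholesterol synthesis and uptake. MXD3, a partner of MAX, represses transcription at E-boxes, which have the letters CACGTG.

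The sequences before the start sites of 5 members are shown because 4 of them (APOE, APOC1, SCD and MYLIP) had separate levels in the 2 replicate numbers, and because the fifth, ABCA1, was the only member with an E-box in this window. They were taken from RefSeq promoters, searched in the 250 bases before the first listed start, and placed on GRCh37 by exact match. Bases inside an annotated exon of the gene were left off and the longest remaining run was kept, which shortened APOE to 245 bases and APOC1 to 118. The runs lie at chr19:45408803-45409047 (APOE, plus strand), chr19:45417747-45417864 (APOC1, plus), chr10:102106740-102106989 (SCD, plus), chr6:16129067-16129316 (MYLIP, plus) and chr9:107690437-107690686 (ABCA1, minus), and each is upstream of that start and is written 5′ to 3′ on the strand of its gene. The APOC1 run lies in an intron of a longer annotated transcript of APOC1, and the others lie before the gene. Capitals mark a match, on either strand, to the E-box or to the CCAAT box bound by NF-Y, which reads ATTGG on the other strand.
APOE: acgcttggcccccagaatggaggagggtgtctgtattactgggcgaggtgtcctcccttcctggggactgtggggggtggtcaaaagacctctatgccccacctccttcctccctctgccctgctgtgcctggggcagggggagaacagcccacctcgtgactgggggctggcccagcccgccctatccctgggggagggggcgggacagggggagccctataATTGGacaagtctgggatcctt
APOC1: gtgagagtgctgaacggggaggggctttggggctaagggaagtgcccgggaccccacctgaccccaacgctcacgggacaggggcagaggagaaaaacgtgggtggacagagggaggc
SCD: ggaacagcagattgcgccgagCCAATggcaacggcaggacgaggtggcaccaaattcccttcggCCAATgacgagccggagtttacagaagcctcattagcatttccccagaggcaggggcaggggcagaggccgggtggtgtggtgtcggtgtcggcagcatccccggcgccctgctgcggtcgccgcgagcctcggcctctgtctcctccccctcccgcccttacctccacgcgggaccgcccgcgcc
MYLIP: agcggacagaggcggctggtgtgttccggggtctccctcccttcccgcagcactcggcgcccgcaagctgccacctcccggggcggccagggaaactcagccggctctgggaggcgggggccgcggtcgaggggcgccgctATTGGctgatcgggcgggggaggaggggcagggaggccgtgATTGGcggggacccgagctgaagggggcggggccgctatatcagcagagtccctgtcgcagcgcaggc
ABCA1: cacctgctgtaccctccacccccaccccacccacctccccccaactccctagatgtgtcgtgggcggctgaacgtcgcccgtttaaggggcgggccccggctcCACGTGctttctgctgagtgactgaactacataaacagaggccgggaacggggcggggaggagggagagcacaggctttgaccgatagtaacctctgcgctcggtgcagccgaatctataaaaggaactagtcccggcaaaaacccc

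The E-box of ABCA1 lay 147 bases before its start, and an E-box was present in 6.49% of 27305 promoter windows of the same length. A CCAAT box was found in 4 of the 8 members with a promoter entry, namely APOE, MYLIP, SCD and LPCAT3, beside 33.0% of all windows. In APOE it lay 27 bases before the start. The LXR half-site AGGTCA was found in NR1H3 only, 140 bases before its start, and in 12.1% of all windows. The paired LXR element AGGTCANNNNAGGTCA and the SREBP element core TCACCCCAC were in no member window and in 0.0146% and 0.348% of all windows. A match or its absence concerns only these letters in this window. The search took exact letters, so an element that differs from them in any base was neither found nor marked. With so few windows holding the paired LXR element or the SREBP core, their absence from the 8 members does not show that these windows lack such elements.

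The members spanned a wide range of levels. Divided by the length of the annotated exons, mean CPM per kilobase was 260 for SCD, 167 for APOE, 68.6 for APOC1, 36.3 for MYLIP, 16.2 for NR1H2, 7.82 for LPCAT3, 1.66 for NR1H3, 0.0229 for ABCA1 and 0.00445 for ABCG1. This order was the same within each of the 6 libraries. Over libraries, the ranges of SCD and APOE overlapped, as did those of APOE and APOC1, of APOC1 and MYLIP, and of ABCA1 and ABCG1, whereas NR1H2, LPCAT3 and NR1H3 did not overlap their neighbours on this scale.

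**Figure D1:**
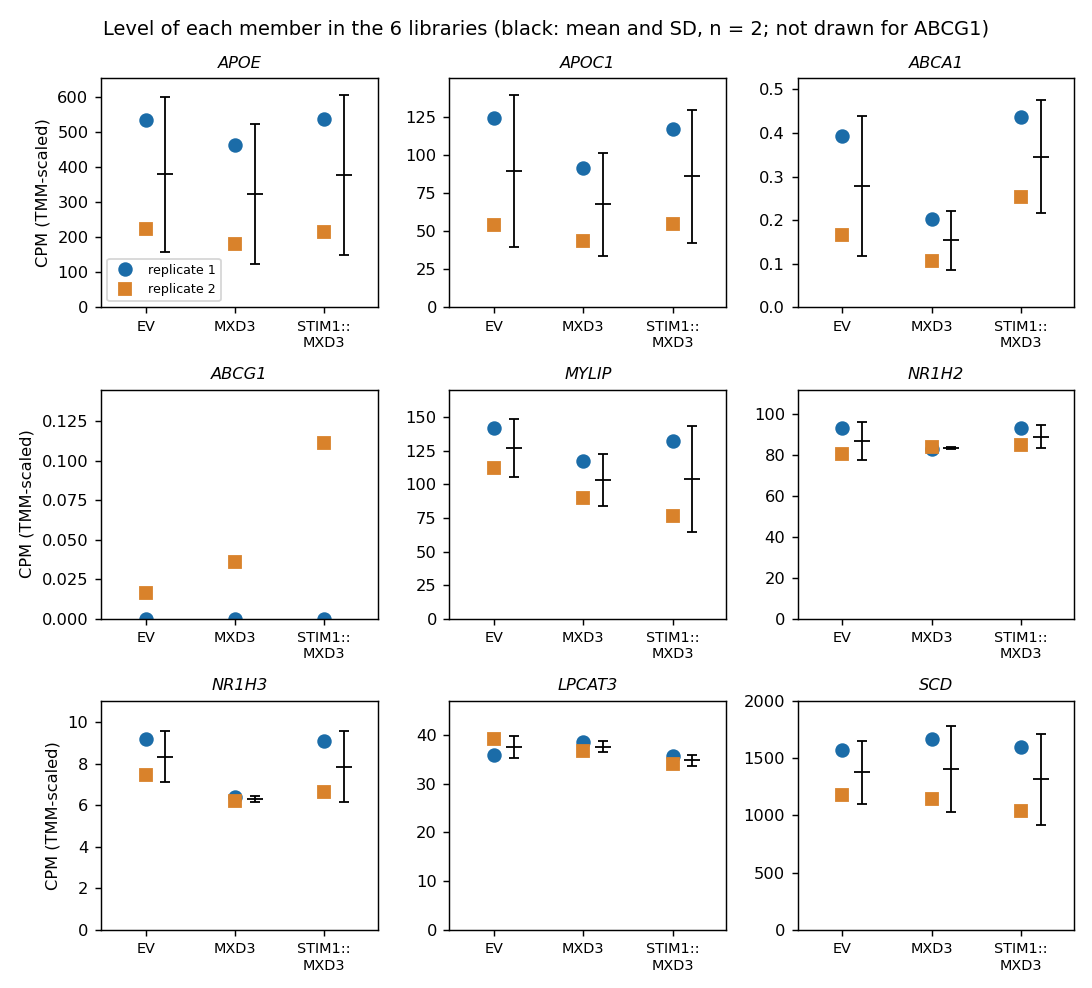
Level of each of the 9 members in the 6 libraries, in TMM-scaled CPM on linear axes that start at 0. Blue circles are replicate 1, orange squares are replicate 2, and black bars are the mean and SD of the 2 libraries of a group (not drawn for ABCG1). APOE lies between 463 and 537 CPM in replicate 1 and between 181 and 223 CPM in replicate 2, whichever plasmid was used.

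APOE (NCBI Gene 348) encodes apolipoprotein E, the ligand that carries lipoproteins to their receptors. In GRCh37 it spans chr19:45409048-45412650 on the plus strand. Its level was 535 and 223 CPM in EV replicates 1 and 2, 463 and 181 CPM in MXD3, and 537 and 215 CPM in STIM1::MXD3. The 3 replicate 1 libraries were high and the 3 replicate 2 libraries low, and the plasmid groups overlapped. Group means were 379 ± 220 CPM (SD, n = 2) in EV, 322 ± 200 in MXD3 (SD, n = 2) and 376 ± 228 in STIM1::MXD3 (SD, n = 2). On the log2 scale, the difference of MXD3 from EV was -0.24 ± 0.61 (SE), and -0.26 ± 0.079 (SE) with the replicate number as a block. Within a replicate number, APOE in MXD3 was 0.866 times its EV level in replicate 1 and 0.810 times in replicate 2. The log2 difference of STIM1::MXD3 was -0.01 ± 0.61 (SE) from EV, with ratios of 1.00 and 0.963 within replicates 1 and 2. From MXD3 it was 0.22 ± 0.61 (SE), or 0.23 ± 0.079 (SE) with the block, with ratios of 1.16 and 1.19. Without EV replicate 1 or without MXD3 replicate 2, the unblocked log2 difference of MXD3 from EV became 0.53 and 0.28. The EV comparison of STIM1::MXD3 likewise turned to 0.75 and 0.50 without EV replicate 1 or STIM1::MXD3 replicate 2, and its MXD3 comparison to -0.29 and -0.58 without MXD3 replicate 2 or STIM1::MXD3 replicate 1. The unblocked differences of APOE thus changed sign with the library left out, and the spread between replicate numbers exceeded each plasmid difference. Leaving out 1 library leaves the replicate numbers unbalanced between the groups. These shifts therefore carry the replicate difference and do not show that the plasmid differences are unstable. Within both replicate numbers, MXD3 stood below EV and STIM1::MXD3 above MXD3, while STIM1::MXD3 had ratios of 1.00 and 0.963 to EV.

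APOC1 (NCBI Gene 341, chr19:45417504-45422606, plus strand) encodes a small apolipoprotein that is carried on the same particles and slows their uptake. Its level was 124 and 53.9 CPM in EV replicates 1 and 2, 91.1 and 43.8 CPM in MXD3, and 117 and 54.9 CPM in STIM1::MXD3. As for APOE, every replicate 1 library lay above every replicate 2 library, and MXD3 held the lowest value within each replicate number. The log2 difference of MXD3 from EV was -0.40 ± 0.53 (SE), or -0.38 ± 0.089 (SE) with the block, and APOC1 was at 0.733 and 0.813 times the EV level within replicates 1 and 2. That of STIM1::MXD3 was -0.05 from EV (ratios of 0.939 and 1.02) and 0.35 from MXD3 (ratios of 1.28 and 1.25), or -0.03 ± 0.088 (SE) and 0.34 ± 0.089 (SE) with the block. Leaving out EV replicate 1 turned the MXD3 difference from EV to 0.33, and leaving out MXD3 replicate 2 turned it to 0.02. The difference of STIM1::MXD3 from EV became 0.67 without EV replicate 1 and 0.39 without STIM1::MXD3 replicate 2. Its difference from MXD3 became -0.08 without MXD3 replicate 2 and -0.30 without STIM1::MXD3 replicate 1. These shifts, as for APOE, carry the difference between replicate numbers, which the groups then hold unequally. Within both replicate numbers, APOC1 was lower in MXD3 than in EV and in STIM1::MXD3. APOE counts were 3.92 to 5.09 times APOC1 counts over the 6 libraries.

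NR1H3 (NCBI Gene 10062, chr11:47269851-47290584, plus strand), the gene of LXRα, was at 9.21 and 7.48 CPM in EV replicates 1 and 2, 6.41 and 6.19 CPM in MXD3, and 9.08 and 6.65 CPM in STIM1::MXD3. Both MXD3 libraries lay below all 4 others. The log2 difference of MXD3 from EV was -0.40 ± 0.23 (SE) and that of STIM1::MXD3 from MXD3 was 0.32 ± 0.23 (SE). With the block these were -0.40 ± 0.17 (SE) and 0.30 ± 0.17 (SE). Without STIM1::MXD3 replicate 1 the NR1H3 difference from MXD3 was 0.08, and without STIM1::MXD3 replicate 2 it was 0.52. Without EV replicate 1 that of MXD3 from EV was -0.25. STIM1::MXD3 and EV overlapped, with a difference of -0.09 ± 0.23 (SE), which became 0.07 without EV replicate 1 and 0.12 without STIM1::MXD3 replicate 2. NR1H2 (NCBI Gene 7376, chr19:50832910-50886645, plus strand), the gene of LXRβ, varied less. It was at 93.3 and 80.3 CPM in EV, 83.1 and 83.7 CPM in MXD3, and 93.1 and 85.0 CPM in STIM1::MXD3. The NR1H2 log2 differences lay between -0.06 and 0.09 with an SE of 0.13, and the EV libraries spanned those of MXD3. With the block, the NR1H2 differences lay between -0.05 and 0.09 with an SE of 0.090.

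ABCA1 and ABCG1 encode the transporters that pass cholesterol to lipid-poor apolipoprotein A-I and to high-density lipoprotein, and both were near the limit of detection. ABCA1 (NCBI Gene 19, chr9:107543287-107690436, minus strand) had 20 and 10 counts in EV replicates 1 and 2, 13 and 6 counts in MXD3, and 24 and 16 counts in STIM1::MXD3. Exact Poisson 95% intervals, which cover counting error only, were 12.2 to 30.9 for the 20 counts and 2.2 to 13.1 for the 6 counts. These intervals, and the limits for ABCG1 below, would be too narrow if a count holds both ends of a read pair. Whether it does is not stated. STIM1::MXD3 held the higher value within each replicate number, at 0.438 and 0.254 CPM beside 0.202 and 0.107 CPM in MXD3, and these 2 groups did not overlap. The log2 difference of STIM1::MXD3 from MXD3 was 1.14 ± 0.75 (SE), or 1.17 ± 0.75 (SE) with the block, from 89 counts over all libraries. The ABCA1 difference of MXD3 from EV was -0.82 ± 0.76 (SE), or -0.81 ± 0.77 (SE) with the block. That of STIM1::MXD3 from EV was 0.32 ± 0.73 (SE), or 0.37 ± 0.72 (SE) with the block. With 1 library left out in turn, the unblocked difference of MXD3 from EV lay between -1.34 (without MXD3 replicate 1) and -0.08 (without EV replicate 1). The other lay between -0.18 (without EV replicate 2) and 1.06 (without EV replicate 1), and was -0.12 without STIM1::MXD3 replicate 1. The difference from MXD3 lay between 0.70 and 1.66, without replicate 1 of STIM1::MXD3 and of MXD3. ABCG1 (NCBI Gene 9619, chr21:43619799-43717354, plus strand) had 10 counts in all, with 1 in EV replicate 2, 2 in MXD3 replicate 2, 7 in STIM1::MXD3 replicate 2 and 0 in the 3 replicate 1 libraries. By the usual one-sided limit a count of 0 allows up to 3 counts (3.69 by the two-sided interval used for ABCA1), or 0.0589, 0.0467 and 0.0547 CPM in EV, MXD3 and STIM1::MXD3 replicate 1. No plasmid difference in ABCG1 was detectable at this depth.

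MYLIP (NCBI Gene 29116, chr6:16129317-16148479, plus strand) encodes a ubiquitin ligase that marks lipoprotein receptors for degradation. It was at 142 and 112 CPM in EV replicates 1 and 2, 117 and 89.9 CPM in MXD3, and 132 and 76.2 CPM in STIM1::MXD3. EV was highest within both replicate numbers, and the groups overlapped. The log2 difference from EV was -0.30 ± 0.28 (SE) for MXD3, with ratios of 0.825 and 0.803 within replicates 1 and 2, and -0.30 ± 0.10 (SE) with the block. For STIM1::MXD3 it was -0.29 ± 0.28 (SE), with ratios of 0.929 and 0.680 (-0.33 ± 0.10 (SE) with the block). The unblocked value became 0.05 without STIM1::MXD3 replicate 2, in a fit that is unbalanced for replicate number. MYLIP in STIM1::MXD3 stood above MXD3 in replicate 1 and below it in replicate 2.

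SCD and LPCAT3 act on fatty acids. SCD (NCBI Gene 6319, chr10:102106990-102124583, plus strand), the desaturase that makes monounsaturated fatty acids and a target of both LXR and SREBP, was at 1569 and 1179.85 CPM in EV replicates 1 and 2, 1668 and 1139.96 CPM in MXD3, and 1594 and 1035 CPM in STIM1::MXD3. The replicate 1 libraries were all above the replicate 2 libraries, and the plasmid groups overlapped. The SCD log2 differences lay between -0.10 and 0.03 with an SE of 0.27. With the block they lay between -0.10 and 0.02 with an SE of 0.083. LPCAT3 (NCBI Gene 10162, chr12:7085347-7125781, minus strand), which places polyunsaturated chains into phospholipids, was at 35.9 and 39.2 CPM in EV, 38.5 and 36.8 CPM in MXD3, and 35.6 and 34.0 CPM in STIM1::MXD3. Both STIM1::MXD3 libraries were below all 4 others for LPCAT3. The log2 difference was -0.11 ± 0.13 (SE) from EV and the same from MXD3, and -0.11 ± 0.10 (SE) from each with the block.

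**Figure D2:**
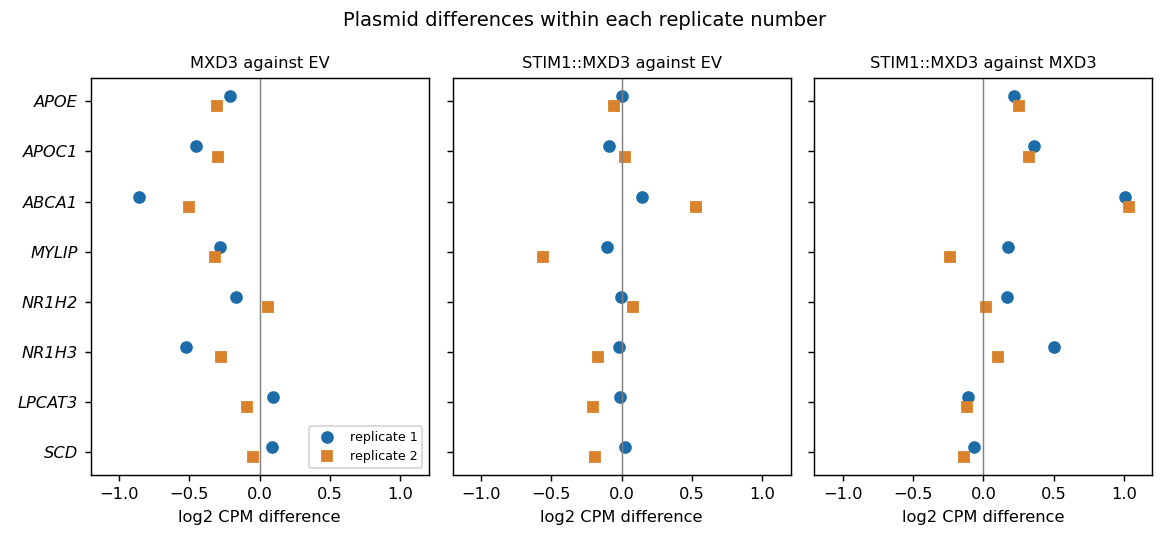
Log2 CPM difference between plasmid groups within replicate 1 (blue circles) and within replicate 2 (orange squares) for the 8 members that passed the low-count filter, with 1 panel for each comparison. In the panel of MXD3 against EV, APOE, APOC1, ABCA1, MYLIP and NR1H3 lie below 0 in both replicate numbers. In that of STIM1::MXD3 against MXD3, APOE, APOC1, ABCA1, NR1H2 and NR1H3 lie above 0 in both.

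Counts of calls are given for the members beside all genes, with nothing read from them because of how the members were chosen. At an edgeR adjusted p under 0.05, 0 of the 8 members were called in any of the 3 plasmid comparisons, and the same was so with the replicate block. Of all 15431 genes, 0.00648% were called for MXD3 against EV (0.292% with the block), 0.00648% for STIM1::MXD3 against EV (0.0194% with the block) and 0% for STIM1::MXD3 against MXD3 (0.00648% with the block). At an unadjusted p under 0.05, edgeR without the block held 0 members in each comparison, beside 1.86%, 0.953% and 1.01% of all genes in the same order. With the block, 4 members (APOE, APOC1, MYLIP and NR1H3) were under 0.05 for MXD3 against EV, beside 13.9% of all genes. For STIM1::MXD3 against EV it was 1 member (MYLIP), beside 8.5%, and for STIM1::MXD3 against MXD3 it was 2 (APOE and APOC1), beside 6.49%. DESeq2 called 0 members without the block. With it, DESeq2 called 1 (APOC1) for MXD3 against EV, beside 2.42% of the genes to which it gave an adjusted p, and 0 in the other comparisons, beside 0.365% for STIM1::MXD3 against EV and 1.42% for STIM1::MXD3 against MXD3. For MXD3 against EV, 1 member (NR1H3) was lower without overlap, beside 14.8% of all genes, and none was higher, beside 16.2%. For STIM1::MXD3 against EV, 1 member (LPCAT3) was lower without overlap, beside 10.0% of genes, and none was higher, beside 12.0%. For STIM1::MXD3 against MXD3, 3 members (ABCA1, NR1H2 and NR1H3) were higher without overlap, beside 10.9% of genes, and 1 (LPCAT3) was lower, beside 10.2%. The median log2 difference over the 8 members was -0.27, -0.06 and 0.16 in these comparisons, beside 0.00, 0.01 and 0.01 over all genes tested.

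The other genes of the pathway, listed by role, were tested in the same fit. These lists were also drawn up with earlier results known, so their counts are set beside those of all genes and are not independent evidence. Of 90 listed genes that are not members, 78 passed the low-count filter, and 0 were called in each plasmid comparison by edgeR (adjusted p). The number at an unadjusted p under 0.05 was 3 for MXD3 against EV, 1 for STIM1::MXD3 against EV and 1 for STIM1::MXD3 against MXD3, beside the 1.86%, 0.953% and 1.01% of all genes given above. With the replicate block in edgeR it was 9, 9 and 5 of the 78 in the same order, beside 13.9%, 8.5% and 6.49% of all genes. Of 25 other LXR target genes, 20 were tested and 20 did not pass in any comparison. The smallest unadjusted p-values among them belonged to THRSP, which encodes a nuclear protein tied to lipogenesis (log2 difference of 0.87 ± 0.46 (SE) for STIM1::MXD3 against MXD3), and to APOC2, the cofactor of lipoprotein lipase (-1.17 ± 0.66 (SE) for MXD3 against EV). Both were below 2 CPM on average.

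Lipoprotein receptors, through which APOE is taken up, gave the only pathway gene called by edgeR with the replicate block. LRP12, a receptor-related protein of this list, was at 94.9 and 68.9 CPM in EV replicates 1 and 2, 59.5 and 43.2 CPM in MXD3, and 77.6 and 38.2 CPM in STIM1::MXD3. Both MXD3 libraries were below both EV libraries. The edgeR log2 difference of LRP12 in MXD3 against EV was -0.67 ± 0.34 (SE), with an adjusted p of 0.999 without the block and 0.0399 with it (-0.67 ± 0.12 (SE)). LRP8, also an APOE receptor, was at 29.5 and 34.5 CPM in EV, 48.7 and 44.7 CPM in MXD3, and 26.8 and 37.8 CPM in STIM1::MXD3. For LRP8 the difference of MXD3 from EV was 0.54 ± 0.19 (SE), with an edgeR adjusted p of 0.999, and 0.0778 with the block.

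In the remaining pathway lists, edgeR called 0 genes with or without the block in any plasmid comparison. Among the erythroid markers it called HBZ, an embryonic globin, for MXD3 against EV with the block (0.40 ± 0.080 (SE), adjusted p = 0.0482) and not without it (adjusted p = 0.999). HBZ was at 263 and 145 CPM in EV replicates 1 and 2 and 354 and 188 CPM in MXD3, so the groups overlapped. Among the 13 LXR partners and cofactors, of which 12 were tested, RXRB, which encodes an RXR, had 0 and 6 counts in EV replicates 1 and 2, 77 and 6 in MXD3, and 92 and 62 in STIM1::MXD3. MXD3 replicate 1 was near the STIM1::MXD3 libraries for RXRB, and MXD3 replicate 2 near those of EV (edgeR adjusted p = 1.00 for STIM1::MXD3 against EV). RXRB lies in the major histocompatibility region, for which the hg19 reference can hold alternate copies, so its counts may not follow the level of the gene. Of 9 oxysterol enzymes, 5 were tested, and the smallest p-value was that of SULT2B1, a sterol sulfotransferase (-0.92 ± 0.49 (SE), STIM1::MXD3 against EV). The 5 MYLIP partner enzymes were all tested, and UBE2D4 and UBE2D1, which pass ubiquitin to ligases, differed by -0.23 ± 0.20 (SE) and 0.25 ± 0.22 (SE) between STIM1::MXD3 and EV. Among 16 SREBP targets of cholesterol synthesis and uptake, the smallest p-values were those of SREBF2, the gene of SREBP2 (-0.29 ± 0.20 (SE), MXD3 against EV), and of LSS, which closes the sterol rings (-0.15 ± 0.13 (SE), STIM1::MXD3 against MXD3). With the block, SREBF2 differed by -0.29 ± 0.081 (SE) in MXD3 against EV, with an edgeR adjusted p of 0.135. Of 11 neighbours of APOE, 9 were tested, and RELB, a subunit of NF-κB, was at 1.63 and 1.16 CPM in EV and 2.69 and 2.28 CPM in MXD3 (0.84 ± 0.32 (SE), edgeR adjusted p = 0.999).

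The members were then compared between the 3 libraries numbered 2 and the 3 numbered 1, with the plasmid group in the same edgeR model. This comparison was added after the values were seen. If a number marks a shared day or batch, the 3 libraries of a number do not repeat that day or batch. The SEs and edgeR p-values of this comparison would then measure the spread between libraries, not that between days or batches. APOE in replicate 2 was at 41.8%, 39.1% and 40.1% of its replicate 1 level in EV, MXD3 and STIM1::MXD3, a log2 difference of -1.31 ± 0.066 (SE). APOC1 was at 43.4%, 48.1% and 47.0%, a log2 difference of -1.12 ± 0.073 (SE). Among the 10250 genes with a mean of at least 5 CPM, ranked from the most negative difference, APOE stood at place 6 and APOC1 at place 19. For SCD the replicate 2 level was 64.9% to 75.2% of replicate 1 (-0.53 ± 0.068 (SE)), and for MYLIP 57.6% to 78.7% (-0.51 ± 0.085 (SE)). ABCA1 differed by -0.97 ± 0.61 (SE) with overlap between the replicate numbers, NR1H3 by -0.27 ± 0.14 (SE) and NR1H2 by -0.11 ± 0.073 (SE), also with overlap. LPCAT3 was at 95.5% to 109% and differed by less than its error. With 1 library left out in turn, APOE lay between -1.34 and -1.28 and APOC1 between -1.13 and -1.07 on the log2 scale.

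Of the 8 members, 4 were called lower in replicate 2 (APOE, APOC1, MYLIP and SCD), beside 16.1% of all genes, and 0 higher, beside 13.1%. The same 4 were lower without overlap, beside 20.6% of genes, and 0 were higher, beside 18.0%. ABCG1, which did not pass the filter, is not among these 8. It went the other way, with 0 counts in replicate 1 and 10 in replicate 2, near the limit of detection. These counts are a description, since the members were chosen with the replicate values in view. The median over the members was -0.52, and that over all genes tested was 0.01. Of all genes called, 2020 were higher and 2479 lower. Scaled by library size only, these were 2638 and 1637, and APOE still differed by -1.24 and APOC1 by -1.05 (log2).

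**Figure D3:**
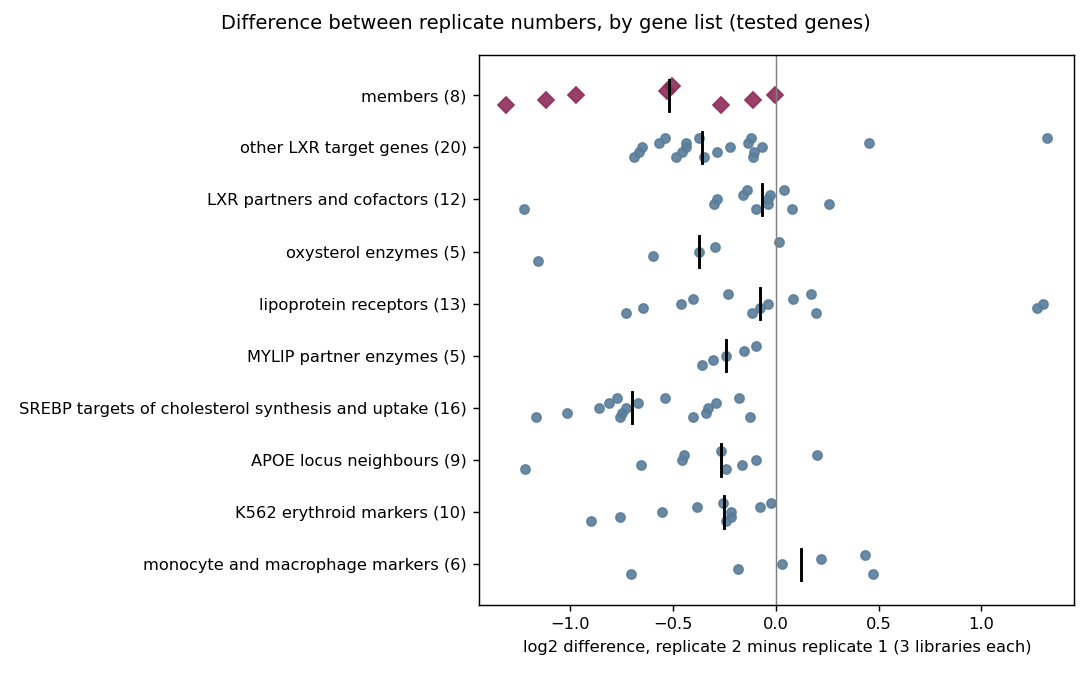
Log2 difference between replicate 2 and replicate 1 (3 libraries each, plasmid group in the model) for every tested gene of each list, with the number of tested genes in parentheses. Each point is a gene, diamonds are the members, and the black bar is the median of the list. The median lies at -0.52 for the members, -0.70 for SREBP targets and -0.07 for LXR partners and cofactors.

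Listed genes that are not members were tested in the same comparison, and 38 of 78 were lower and 3 higher in replicate 2 by edgeR (adjusted p under 0.05), beside the 16.1% and 13.1% above. Of 20 other LXR targets, 10 fell and 0 rose, with a median of -0.36. They included LPL, lipoprotein lipase (-0.67, adjusted p = 0.00261), MERTK, a receptor for the uptake of dying cells (-0.69, adjusted p = 0.0151), and FASN, fatty acid synthase (-0.48, adjusted p = 0.000144). SREBF1, the LXR target that encodes SREBP1, was at a log2 difference of -0.07 (adjusted p = 0.538). The examples of this comparison were chosen after their values were seen. All 16 SREBP targets were negative and 14 passed, INSIG1, a brake on SREBP, at -1.17 (adjusted p = 4.57e-06) and HMGCS1, an early enzyme of cholesterol synthesis, at -1.02 (adjusted p = 7.99e-06).

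Of 13 tested lipoprotein receptors, 5 were lower and 1 higher. VLDLR, which binds APOE-rich particles, was the higher gene, at a mean of 0.574 CPM in replicate 1 and 1.40 in replicate 2 (1.30, edgeR adjusted p = 0.00974). Of 12 LXR partners and cofactors, 2 were lower (NCOA1 and TBL1XR1) and 1 was higher (TBL1X), with a median of -0.07. RXRA, the RXR with the larger counts, was at 0.04 (adjusted p = 0.721). Of the 5 tested oxysterol enzymes 2 were lower, and of the 5 MYLIP partner enzymes 3 were lower (UBE2D1, UBE2D2 and USP2). Erythroid markers moved with the replicate number as well, since 7 of 10 were lower, among them HBZ (-0.90, edgeR adjusted p = 8.96e-07), and their summed level was 8644 to 9755 CPM in replicate 1 and 6977 to 7837 CPM in replicate 2. Their part in the member differences was not tested. Of 6 tested monocyte and macrophage markers, 1 was lower (CD68, -0.19, adjusted p = 0.0498).

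**Figure D4:**
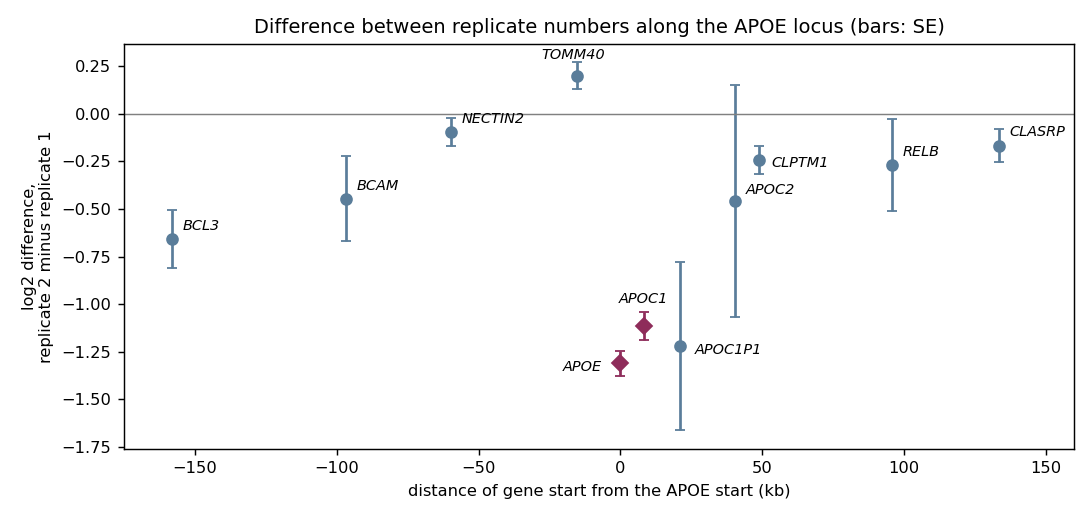
Log2 difference between replicate 2 and replicate 1 (3 libraries each) for genes around APOE, plotted by the distance of their start from that of APOE in kilobases, with bars for the SE. APOE, APOC1 and APOC1P1 lie between -1.31 and -1.12, while TOMM40, which starts 15.2 kb before APOE, lies at 0.20.

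Along chromosome 19, the difference between replicate numbers was not shared by all neighbours of APOE. TOMM40, a mitochondrial import channel gene that starts 15.2 kb before APOE, was higher in replicate 2, at a mean of 129 CPM in replicate 1 and 149 in replicate 2 (0.20 ± 0.070 (SE), edgeR adjusted p = 0.0418). NECTIN2, a cell adhesion gene 59.6 kb before APOE, was at -0.10 ± 0.072 (SE), which did not pass (adjusted p = 0.346). On the other side, APOC1P1, a copy of APOC1 that starts 21.0 kb after the APOE start, was at -1.22 ± 0.44 (SE) (edgeR adjusted p = 0.0479), with a mean of 0.834 CPM in replicate 1 and 0.352 in replicate 2. APOC1P1 resembles APOC1 in sequence, so its reads may in part be reads of APOC1. CLPTM1, 48.8 kb away, was at -0.24 (adjusted p = 0.0225) and BCL3, 158 kb before APOE, at -0.66 (adjusted p = 0.00459). In all, 3 of 9 tested neighbours were lower and 1 higher by edgeR (adjusted p under 0.05), beside 16.1% and 13.1% of all genes. Whether called or not, 8 of the 9 had a negative difference and 1 a positive one, with a median of -0.27.

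The pattern of APOE over the 6 libraries was compared with 3684 genes of at least 5 CPM on average and a log2 range of at least 0.5. The highest Pearson correlations of log2 CPM, over 6 libraries that fall apart by replicate number, were those of MAP1LC3B2 (0.997), POR (0.996), ATP5F1D (0.996), CKB (0.994) and INPP5J (0.994). POR, the electron donor of cytochrome P450 enzymes, was at 171 and 131 CPM in EV replicates 1 and 2, 165 and 119.73 CPM in MXD3, and 169 and 125 CPM in STIM1::MXD3. A correlation of at least 0.9 was reached by 718 of the genes compared (19.5%). Among the members, the correlation with APOE was 0.989 for APOC1, 0.945 for SCD, 0.845 for MYLIP, 0.798 for ABCA1, 0.726 for NR1H2, 0.689 for NR1H3 and -0.03 for LPCAT3.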

How the data were processed

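RNA of K562 cells with EV, MXD3 or STIM1::MXD3 was sequenced in 2 libraries per group, as read pairs from poly A libraries on the hg19 reference. The authors deposited 1 table of raw counts for each library, by NCBI Gene identifier and with no normalisation. The submitters' processing notes name HISAT2 2.2.1 and featureCounts 2.0.1. The annotation, strand setting and handling of read pairs are not given in the sources used here, so counts of overlapping genes are uncertain, and a count may hold both ends of a pair (counts were also halved and rounded up).

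Groups and replicate numbers came from the labels. Symbols were matched for 23696 of 25702 identifiers (92.2%) from the RefSeq gene table. Genes were kept with filterByExpr and scaled with TMM (factors of 0.960 to 1.03), and CPM uses these factors. In edgeR 4.0.16 (limma 3.58.1, R 4.3.3), a quasi-likelihood F test was fitted to all 6 libraries with 1 coefficient per group and no covariate, two-sided, with Benjamini-Hochberg adjustment over all 15431 genes tested and a threshold of 0.05. Log2 CPM used a prior count of 2. The code was tested on simulated data. Alternatives were the replicate block, DESeq2 1.42.0, other scalings, no filter, halved counts and each library left out. The comparison of replicate numbers was added after the data were seen.

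Libraries that share a number deviated together from the mean of their group across the 15431 genes (r = 0.27 between EV and MXD3, 0.364 between STIM1::MXD3 and EV, 0.45 between STIM1::MXD3 and MXD3), so the numbers were taken to pair the libraries. Values with the block are given for the 8 members that passed the filter and for LRP12, LRP8, HBZ and SREBF2. Counts of calls with the block are given for all comparisons.

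The members and gene lists were chosen with earlier results of these data known. Besides the members, the text names MXD3 and STIM1, in each pathway list the genes called without or with the block and the 2 with the smallest p-value, and the 5 genes most like APOE. Genes named outside this rule are marked, and some listed genes are not reported here. Coordinates and exon lengths came from the GENCODE annotation of GRCh37, and promoters from RefSeq, which matched 8 of the 9 members.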

Additional observations from a re-analysis of the deposited data

How the results depend on the processing

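With 2 libraries per group, plasmid calls depended on the pairing. For MXD3 against EV, 1 gene was called in the fit without a covariate, 45 with the replicate block, 3 with DESeq2 and 243 with DESeq2 and the block. For STIM1::MXD3 against EV these were 1, 3, 3 and 29, and 2 without the low-count filter. For STIM1::MXD3 against MXD3 they were 0 (156 at an unadjusted p under 0.05 in edgeR), 1, 1 and 11, and 1 without the filter. With 1 library left out, the counts lay between 1 and 2, at 1, and at 0. Of the listed genes, 0 were called for MXD3 against EV, 1 with the replicate block (LRP12) and 3 with DESeq2 and the block (LRP12, LRP8 and SREBF2). DESeq2 with the block called 1 (LRP12) for STIM1::MXD3 against EV, and the other settings called 0. The cause was not tested.

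Between replicate numbers, 4499 genes were called, and 2580 to 4424 with 1 library left out (2580 without STIM1::MXD3 replicate 1 and 2902 without replicate 2). Of the listed genes, 41 were called, and 28 to 40 with 1 library left out. Of 424 member differences under other settings, 414 moved by less than the spread between libraries and 10 moved by more. This count does not show stability for plasmid differences. Leaving out 1 of the 2 libraries of a group shifts its mean by no more than about that spread. It also leaves the replicate numbers unbalanced between groups. In all, 46 of the differences changed sign, of which LPCAT3 and MYLIP alone changed with all libraries kept. ABCA1 and ABCG1 were limited by their counts.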
